A study of Mus musculus with 13 samples.

Results

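Paneth cells of aged mice were compared with those of young mice over all genes, aged minus young. The comparison took the 7 Paneth cell libraries of a series of 13 libraries, 3 from aged and 4 from young mice, by their labels. The other 6 libraries are of intestinal stem cells and enter below only where the age change in Paneth cells is set against that in stem cells. The study's title names alterations of Wnt signalling with age. Aged mice were 20 to 22 months old and young mice 2 to 3 months old. Both groups are described as male mice on a C57Bl6/SV129 background that carry the Lgr5-eGFP-IRES-CreERT2 reporter allele, which marks Lgr5-expressing stem cells with green fluorescent protein. No treatment is named for either group. Crypts of the proximal part of the small intestine, stripped of villi, were the source of the cells, and how Paneth cells were picked from the crypts is not given in the sources used here. The labels do not say whether libraries of a group came from separate mice, so the spread that the p-values measure may be technical.

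Paneth cells sit at the base of the small intestinal crypt between the stem cells. They fill large granules with lysozyme, alpha-defensins, secretory phospholipase and lectins, which are released into the crypt lumen against bacteria, and this output needs a large endoplasmic reticulum with its folding and stress machinery. They also hand Wnt3, Notch ligands and epidermal growth factor to the neighbouring stem cells, and in old mice they are known to produce Notum, an enzyme that inactivates Wnt proteins.

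The labelled cell type was checked against its markers. Values are read counts relative to the scaled library size (CPM), scaled by the trimmed mean of M-values (TMM) within the 7 libraries, and are listed in the order of the library numbers. Lysozyme (Lyz1) stood at 19392, 12306, 9119 and 1421 CPM in the young and 7387, 955 and 2358 CPM in the aged libraries. Mmp7, the metalloproteinase that activates defensins in the mouse, stood at 335, 195, 195 and 33.4 CPM in the young and 71.5, 12.6 and 29.7 CPM in the aged libraries, and Defa24, an alpha-defensin, at 16398, 8946, 8975 and 1359 CPM in the young and 6197, 801 and 2529 CPM in the aged libraries. All 3 markers were present in each library, but young library 4 and aged libraries 2 and 3 lay lowest for each of them. On the scale of all 13 libraries Lyz1 stood at 591 ± 127 CPM (SD) in the young stem cell libraries and 594 ± 313 CPM in the aged ones, so its RNA was present in stem cell libraries too.

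The same 3 libraries held most RNA of absorptive enterocytes. The summed level of 25 enterocyte markers was 10233, 2787, 5458 and 28935 CPM in the young and 10589, 41734 and 35455 CPM in the aged libraries. Aged library 1 thus lay within the range of the young libraries, and aged libraries 2 and 3 lay above all of them. Sums of the alpha-defensins ran the other way, with 38571, 23818, 21100.4 and 3434 CPM in the young and 13463, 1729 and 5323 CPM in the aged libraries. Of the other cell types, the summed exocrine pancreas markers were 128 to 541 CPM in young and 22.1 to 113 CPM in aged libraries, without overlap. Of that sum, the colipase gene Clps alone held 277, 133, 170 and 29.4 CPM in the young and 101, 17.7 and 37.7 CPM in the aged libraries. Clps overlapped between groups and, like Lyz1, was lowest in young library 4 and aged libraries 2 and 3. Young library 3 was highest for enzymes such as Amy2a5, an amylase under the count filter (0.123, 0, 54.2 and 19.2 CPM in the young and 0, 0 and 0 CPM in the aged libraries). Enteroendocrine markers summed to 790.1 to 5306 CPM in young and 1032 to 3797 CPM in aged libraries, tuft markers to 18.0 to 82.1 CPM in young and 27.7 to 46.5 CPM in aged libraries and goblet markers to 1307 to 2835 CPM in young and 1735 to 2450.1 CPM in aged libraries. Leukocyte markers summed to 91.8 to 138 CPM in young and 82.2 to 128 CPM in aged libraries, and stromal, muscle and endothelial markers to 66.1 to 144 CPM in young and 70.3 to 125 CPM in aged libraries. The sums of the last 5 overlapped between groups. In the order given, 4 of 17, 18 of 22, 8 of 15, 12 of 14, 14 of 26 and 11 of 22 genes of these 6 lists passed the count filter. Prss1 of the pancreas list was at 0 in all 7 libraries. The part of these cells in the results was not tested. In libraries of many cells, fewer cells of a type and less RNA per cell cannot be told apart. Where enterocyte RNA moves with a gene list, the list's median is also given from a fit with the enterocyte level as a covariate and from a fit without young library 4 and aged libraries 2 and 3, which leaves 3 young libraries against a single aged one.

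**Figure D1:**
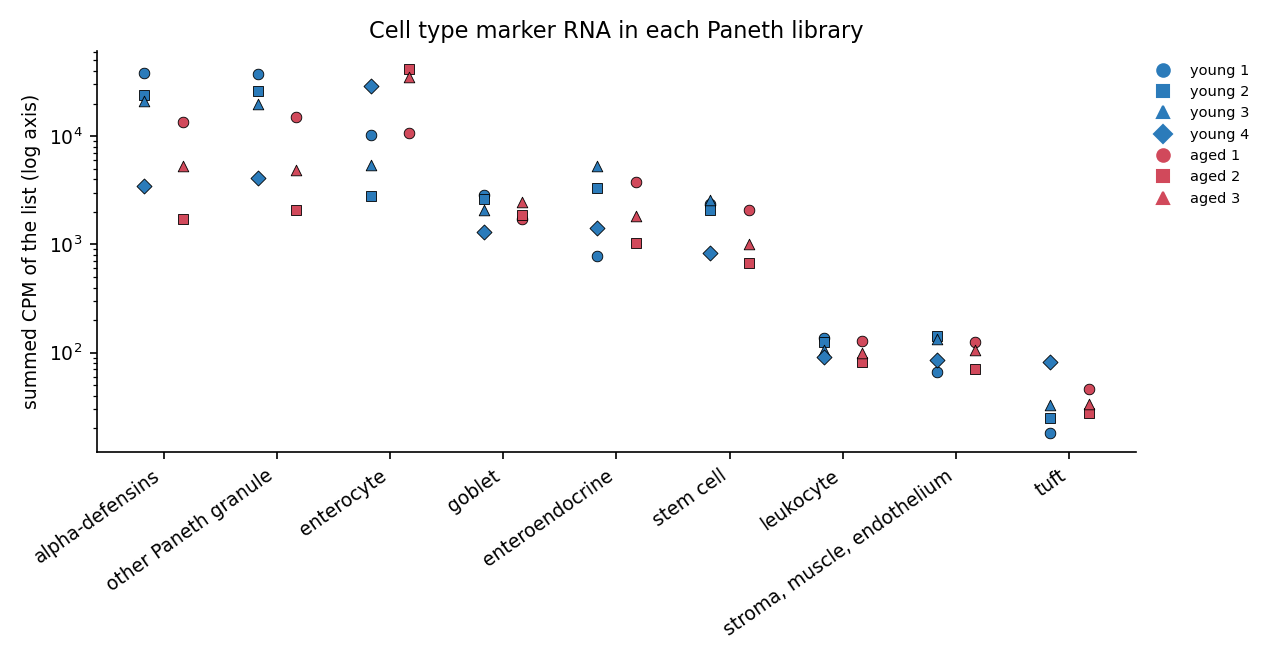
Summed CPM of 9 cell type marker lists (log axis) in each of the 4 young and 3 aged Paneth libraries, 1 point per library. Young library 4 and aged libraries 2 and 3 are lowest for Paneth granule genes and highest for enterocyte markers, and aged library 1 lies within the young range for the enterocyte markers.

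Whole libraries held from 4210439 to 8612228 reads. Of these, 44.8% to 66.2% in young and 26.7% to 41.9% in aged libraries lay on 3 loci (Esp38, Lars2 and Gm20594), which left 1554886 to 6194766 reads for the other genes. The first principal component held 48.8% of the variance and set young library 2 at one end and aged libraries 2 and 3 with young library 4 at the other. Xist, a transcript of female cells, stood at 234 to 537 CPM in all 7 libraries and the Y-linked gene Ddx3y at 0.464 to 2.33 CPM, which goes against the labelled sex in both groups.

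By age, 2 genes fell and 0 rose in Paneth cells by edgeR's quasi-likelihood test at a Benjamini-Hochberg adjusted p under 0.05, out of 14106 genes tested. That is 0.0142% lower and 0% higher. Without adjustment 552 genes were higher (3.91%) and 637 lower (4.52%) at p under 0.05, together 1189 genes or 8.43%. The aged and young libraries did not overlap for 586 genes higher (4.15%) and 526 genes lower (3.73%) in aged libraries. Shares of gene lists are set beside these below. The lists were chosen with earlier results of these data known, so these comparisons describe the lists and do not test them. All genes had a median log2 change of -0.002, and 49.8% of them were higher in aged libraries. Other tools called more genes, DESeq2 51 higher and 63 lower and limma-voom 793 higher and 893 lower. Parentheses after a gene give its log2 change, aged minus young, with the standard error (SE) where shown, and its adjusted p from the edgeR test.

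Directions depend on the scaling. Scaled by library totals, in which the 3 large loci count, the median of all genes moved to 0.57, and the medians of 15 of 34 gene lists changed sign. Relative to the median of all genes, list medians under that scaling were -0.35 for the secretory pathway, 0.80 for the circadian clock, 0.75 for fatty acid oxidation and -0.49 for cholesterol synthesis. As they stand, the secretory and cholesterol medians there were 0.22 and 0.08, so both turned sign. Library totals called 12 genes, 6 higher and 6 lower. Changes below are on the TMM scale, on which all genes centre on 0.

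The smallest p belonged to a gene of the mucosal pentraxins, small secreted proteins of the family that holds C-reactive protein and serum amyloid P, made by Paneth cells in the mouse. Mptx2 (Entrez 100504232, chromosome 1, 173274461 to 173277756) stood at 797, 445, 431 and 144 CPM in the young and 4.48, 4.49 and 2.02 CPM in the aged libraries. Each aged library was at least an order of magnitude below each young one. Mptx2 fell, with a log2 change of -6.97 ± 0.73 (adjusted p = 0.039). Its paralog Mptx1 (Entrez 66289, chromosome 1, 174330518 to 174332877) stood at 137, 46.8, 80.9 and 26 CPM in the young and 1.28, 1.03 and 0.176 CPM in the aged libraries, without overlap, and its change of -6.58 ± 0.82 missed the threshold (adjusted p = 0.0539). With the enterocyte covariate the changes were -6.54 for Mptx2 (adjusted p = 0.0116) and -6.39 for Mptx1 (adjusted p = 0.0825). Reads of the paralogs may be split between them in the counting, so the value of each is uncertain to that extent.

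The 2 pentraxin genes lie on chromosome 1, and the 250 bases before their start sites are shown because the genes were lowest in the same libraries. Sequences here and below are from RefSeq on GRCm38.p6, read 5′ to 3′ on the gene's strand. The windows are chr1:174330268-174330517, plus strand, for Mptx1 and chr1:173277757-173278006, minus strand, for Mptx2. Aligned end to end with gaps, 202 of 273 positions were identical (74.0%). Capitals mark the longest identical run, of 21 bases.
Mptx1: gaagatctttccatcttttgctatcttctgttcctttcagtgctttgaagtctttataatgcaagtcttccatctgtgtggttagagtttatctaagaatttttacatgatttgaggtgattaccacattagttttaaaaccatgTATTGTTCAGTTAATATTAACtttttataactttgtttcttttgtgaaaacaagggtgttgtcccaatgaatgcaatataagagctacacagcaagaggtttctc
Mptx2: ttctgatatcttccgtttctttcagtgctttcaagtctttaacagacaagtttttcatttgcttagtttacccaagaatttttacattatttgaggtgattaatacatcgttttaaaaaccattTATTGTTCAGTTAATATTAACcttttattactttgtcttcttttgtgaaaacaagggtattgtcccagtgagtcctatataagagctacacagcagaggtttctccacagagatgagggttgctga

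Rps4y2 (current symbol Rps4l; Entrez 66184, chromosome 6, 148354656 to 148355596), a gene akin to that of ribosomal protein S4, was the other gene that fell. It stood at 8.33, 12.7, 10.2 and 17.6 CPM in the young and 0.213, 0 and 0.352 CPM in the aged libraries, where the second aged library had no read. The groups lay far apart without overlap, and the log2 change was -5.77 ± 0.66 (adjusted p = 0.0443). Reads numbered 237 in the young and 5 in the aged group, 54.1 times as many per scaled read (95% interval 22.8 to 168, exact binomial, counting error only). In stem cells, on the scale of all 13 libraries, it stood at 19.6 ± 11.8 CPM (SD) in the young stem cell libraries and 1.18 ± 0.850 CPM in the aged ones. The change in Paneth cells minus that in stem cells was -1.81 ± 1.09 (adjusted p = 0.634). Reads of other S4 genes may be counted here. Neither gene passed when young library 1, 2 or 3 or aged library 2 or 3 was left out, with adjusted p up to 0.177 for each. Without young library 4 and aged libraries 2 and 3 Mptx2 passed (adjusted p = 0.0061) and Rps4y2 did not (adjusted p = 0.353).

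**Figure D2:**
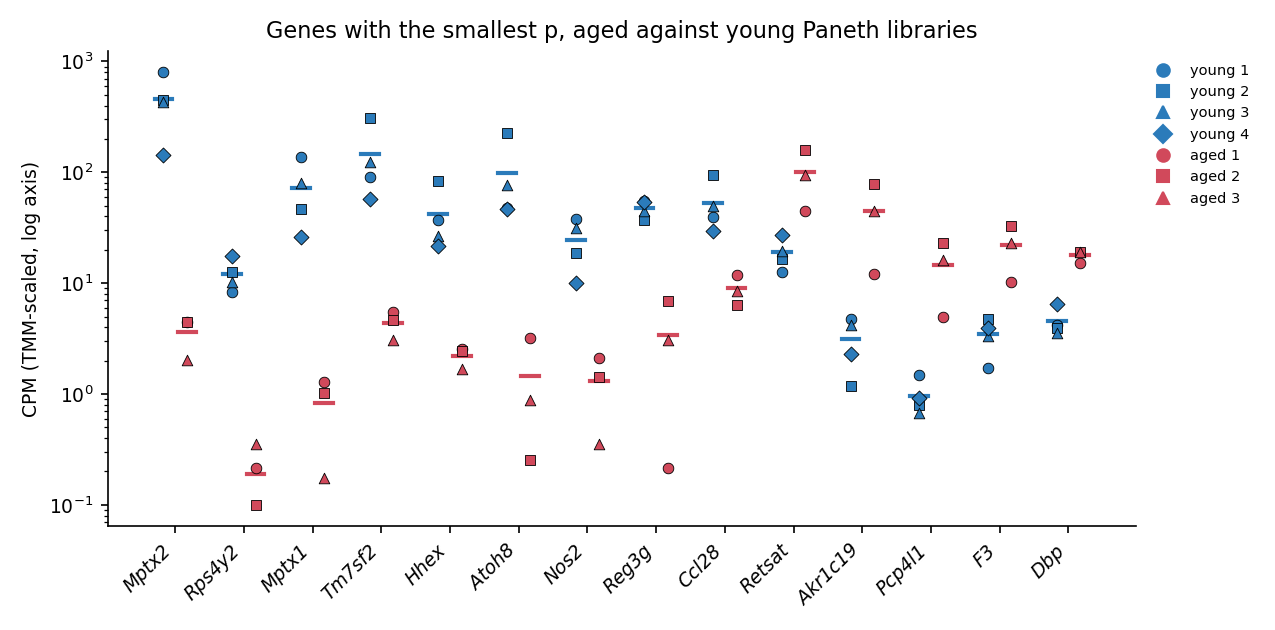
CPM (log axis) of 14 of the genes with the smallest p in the 4 young and 3 aged Paneth libraries, 1 point per library and bars at group means, with the library without an Rps4y2 read drawn at 0.1 CPM. Mptx2 and Rps4y2 passed the test, the other 12 did not, and the groups do not overlap for any of them.

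Regulators of cell fate were among the genes lower without overlap, and of those given here only Hhex was close to the threshold. Hhex, a homeobox factor (Entrez 15242, chromosome 19, 37434841 to 37440731), stood at 37.5, 82.9, 26.5 and 21.8 CPM in the young and 2.56, 2.44 and 1.67 CPM in the aged libraries (-4.25 ± 0.55, adjusted p = 0.0539). Atoh8, a basic helix-loop-helix factor (Entrez 71093, chromosome 6, 72206174 to 72235780), stood at 48.0, 227, 76.4 and 46.8 CPM in the young and 3.20, 0.256 and 0.880 CPM in the aged libraries (-6.24 ± 0.94, adjusted p = 0.128). Both were low in all aged libraries, without overlap, and with the enterocyte covariate Hhex (-3.37, adjusted p = 0.0116) and Atoh8 (-4.94, adjusted p = 0.00103) passed the threshold. Gfi1, the zinc finger factor that keeps secretory precursors from the enteroendocrine fate, stood at 2.45, 5.16, 2.69 and 0.927 CPM in the young and 0.427, 0.128 and 0.352 CPM in the aged libraries (-3.12 ± 0.74, adjusted p = 0.412), also without overlap, on 53 young and 7 aged reads.

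The list of Paneth lineage regulators held 17 tested genes. Of these 16 were lower in aged libraries, with a median log2 change of -0.59, and none passed. The groups did not overlap for 2 of the 17, both lower (11.8%, where 3.73% of all genes were lower without overlap): Gfi1 and Tcf4, the latter named after its values were seen. The list held Atoh1, which sets the secretory fate (-1.38, adjusted p = 0.631), Spdef, which drives goblet and Paneth maturation (-1.24, 0.595), and Sox9, needed to form Paneth cells (-0.59, 0.768). Creb3l4, a transcription factor of the endoplasmic reticulum membrane, stood at 15.1, 15.9, 7.89 and 3.48 CPM in the young and 4.27, 1.80 and 2.02 CPM in the aged libraries (-2.004 ± 0.58, 0.528), where only aged library 1 reached the young range. Its relative Creb3l1 overlapped (-1.34, 0.558), as did Xbp1, the factor that expands the secretory machinery (-0.17, 0.876). The list's median was -0.05 with the enterocyte covariate and -0.25 without the 3 enterocyte-rich libraries. It was -1.30 without aged library 1 and -0.25 without aged library 2.

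Genes of the granule contents were lower as a group. All 12 tested alpha-defensins were lower in aged libraries, with log2 changes from -3.50 to -1.42 and a median of -2.22. None passed, and none had groups without overlap. Defa22, with the smallest p of them, stood at 350.1, 458, 145 and 22 CPM in the young and 47.6, 6.15 and 11.7 CPM in the aged libraries (-3.50 ± 1.03, adjusted p = 0.528), so young library 4 lay between the aged ones. Defa5 showed the same order, with 1229.7, 752, 556 and 83.7 CPM in the young and 163, 31.8 and 59.4 CPM in the aged libraries (-2.95 ± 0.88, adjusted p = 0.528). The defensin genes are close copies of each other, and the counting may have split reads among them.

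Of 18 other granule genes 17 were lower, with a median of -1.58. The groups did not overlap for 3 of the 18, all lower (16.7%, where 3.73% of all genes were lower without overlap). These were Mptx2, which passed, Mptx1 and Reg3g. Reg3g, a lectin that kills Gram-positive bacteria, stood at 54.7, 37.3, 45.2 and 54.0 CPM in the young and 0.213, 6.92 and 3.08 CPM in the aged libraries (-3.75 ± 0.69, adjusted p = 0.232), with young library 4 among the highest, and it passed with the enterocyte covariate (-4.52, adjusted p = 0.0309). Lyz1 and Mmp7 overlapped between groups, with changes of -1.57 ± 0.96 (adjusted p = 0.658) and -2.33 ± 0.77 (adjusted p = 0.534). With the enterocyte covariate the median was -1.02 for the defensins and -0.58 for the other granule genes, and -1.53 and -0.93 without the 3 enterocyte-rich libraries. The direction of both medians held in these fits, while the covariate moved the size of both by more than 1.5 times and leaving out the 3 libraries that of the other granule genes. Without aged library 1 the medians were -3.32 and -2.72, and without aged library 2 they were -1.78 and -1.15.

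The endoplasmic reticulum folds granule proteins with chaperones and disulfide isomerases, moves them out through coat and cargo receptors, and answers overload with the unfolded protein response. Of 32 tested genes of this machinery 29 were lower in aged libraries, with a median log2 change of -0.35, and none passed. The groups did not overlap for 9 of them, all lower (28.1%, where 3.73% of all genes were lower without overlap). Pdia6, a disulfide isomerase, stood at 93.4, 79.7, 82.6 and 42.0 CPM in the young and 33.3, 22.4 and 27.4 CPM in the aged libraries (-1.43 ± 0.33, adjusted p = 0.396). Agr2, the isomerase needed to fold mucins, stood at 95.2, 36.5, 85.3 and 20.4 CPM in the young and 20.1, 6.28 and 15.0 CPM in the aged libraries (-2.12 ± 0.59, adjusted p = 0.522). Young library 4 was the lowest young library for both, and aged library 1 lay below it.

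The cargo receptor gene Tmed3 (-1.08, adjusted p = 0.551) and the translocon gene Ssr4 (-0.88, 0.558) also had groups without overlap. The remaining 5 were Sdf2l1, Pdia4, Ssr1, Calr and Canx, named after their values were seen, with log2 changes of -0.93, -0.60, -0.56, -0.20 and -0.33. Pdia4, a further isomerase, stood at 105, 91.6, 111 and 83.5 CPM in the young and 71.0, 52.4 and 69.4 CPM in the aged libraries, and Ssr1, a translocon subunit, at 103, 78.9, 100.2 and 82.1 CPM in the young and 68.7, 61.9 and 54.5 CPM in the aged libraries. For both genes aged library 1 was the highest aged library and still below each young one. The median of the list was -0.29 with the enterocyte covariate and -0.54 without the enterocyte-rich libraries, so it kept its direction in both. Not all parts of the response were lower: Hspa5, the main chaperone, stood at 500.1, 390.2, 408 and 307 CPM in the young and 293, 495 and 475 CPM in the aged libraries (log2 change 0.07), overlapping, and Dnajb9 had a log2 change of 0.72, both named after their values were seen.

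**Figure D3:**
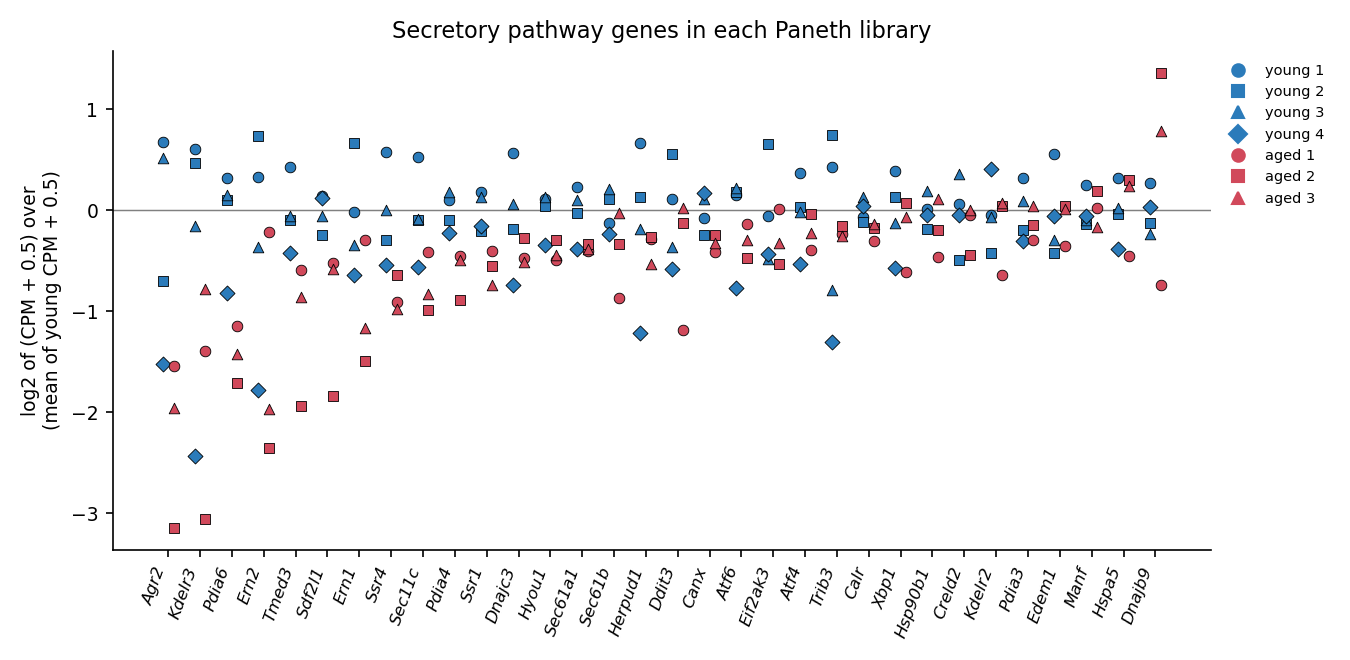
Secretory pathway genes in order of their log2 change, each point a library's log2 of (CPM + 0.5) over (the mean young CPM + 0.5), for 4 young and 3 aged Paneth libraries. Points of aged libraries lie below 0 for most of the 32 genes, and all aged libraries lie below all young ones for 9 of them, Pdia6 and Agr2 among these.

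Stress of the endoplasmic reticulum acts on many of these genes through the endoplasmic reticulum stress element, CCAAT and CCACG with 9 bases of any kind between them. It was searched on both strands of the 250 bases before the start site, with no other motif beside it. A promoter window was found for 25 of the 32 genes, and 7 windows held the element (Hspa5, Hsp90b1, Calr, Canx, Pdia6, Dnajc3 and Creld2), against 37 of 32851 windows of all genes (0.113%). Pdia6 is shown as the gene of smallest p in the list, at chr12:17266339-17266588, plus strand, and Hspa5 as a gene with the same element but overlapping levels, at chr2:34771840-34772089, plus strand. Capitals mark the element.
Pdia6: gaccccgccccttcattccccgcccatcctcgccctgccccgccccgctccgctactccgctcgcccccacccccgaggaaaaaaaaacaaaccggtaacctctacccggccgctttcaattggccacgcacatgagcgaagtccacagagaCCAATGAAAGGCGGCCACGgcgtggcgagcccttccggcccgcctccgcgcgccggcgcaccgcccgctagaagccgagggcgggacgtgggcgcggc
Hspa5: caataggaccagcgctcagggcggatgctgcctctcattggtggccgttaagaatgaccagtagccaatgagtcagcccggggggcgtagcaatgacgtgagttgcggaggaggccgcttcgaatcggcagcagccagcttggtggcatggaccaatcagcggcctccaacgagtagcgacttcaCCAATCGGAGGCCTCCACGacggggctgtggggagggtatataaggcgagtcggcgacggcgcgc
The 7 genes with the element had a median log2 change of -0.20, with 6 of 7 lower, and the 18 without it -0.36, with 17 of 18 lower.

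Antimicrobial and defence genes outside the granule contents gave no passing change. Of 12 tested, 8 were lower and 4 higher, with a median log2 change of -0.06, -0.66 with the enterocyte covariate, -0.92 without the 3 enterocyte-rich libraries and -0.57 without aged library 3. Groups without overlap were found for 3, all lower (25.0%, where 3.73% of all genes were lower without overlap): Nos2, Duox2 and Dmbt1, the last named after its values were seen. Nos2, the inducible nitric oxide synthase (Entrez 18126, chromosome 11, 78920787 to 78960226), stood at 38.1, 18.6, 31.6 and 9.97 CPM in the young and 2.13, 1.41 and 0.352 CPM in the aged libraries (-4.36 ± 0.68, adjusted p = 0.146). Duox2, which makes hydrogen peroxide at the apical membrane, stood at 23.7, 9.52, 19.1 and 153 CPM in the young and 2.99, 1.28 and 0.880 CPM in the aged libraries (-4.99 ± 1.08, 0.344), where young library 4 was far above the other young ones. Neither gene's groups overlapped. The cytokine gene Tnf, with 113 young and 3 aged reads, stood at 6.99, 9.12, 2.85 and 3.71 CPM in the young and 0.427, 0.128 and 0 CPM in the aged libraries (-5.17 ± 0.87, 0.176), a ratio of 43.0 (95% interval 14.3 to 211, exact binomial, counting error only).

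Ccl28, a chemokine that draws IgA-producing plasma cells, stood at 39.7, 94.0, 49.3 and 29.7 CPM in the young and 11.9, 6.41 and 8.53 CPM in the aged libraries (-2.57 ± 0.45, adjusted p = 0.199). Nlrc5, the activator of class I antigen presentation genes, stood at 20.2, 27.8, 6.55 and 27.4 CPM in the young and 1.92, 2.05 and 5.10 CPM in the aged libraries (-2.69 ± 0.58, 0.344). Both had groups without overlap. Of 21 tested antigen presentation genes 9 were higher and 12 lower, with a median of -0.05. Only Nlrc5 of the 21 had groups without overlap (4.76%, where 3.73% of all genes were lower without overlap). B2m (0.71, adjusted p = 0.713) and H2-T3 (0.89, 0.67) of that list were higher, with overlap. The list's median was -0.83 with the enterocyte covariate and -0.55 without the 3 enterocyte-rich libraries. Among the higher genes of the antimicrobial list Reg3a stood at 1.72, 0.793, 1.17 and 9.04 CPM in the young and 4.69, 54.9 and 31.5 CPM in the aged libraries (3.26 ± 0.89, 0.522) and Reg1 at 18.1, 10.3, 32.9 and 32.9 CPM in the young and 29.4, 143 and 133 CPM in the aged libraries (2.10 ± 0.56, 0.505). Levels of these 2 lectin genes followed the enterocyte sums, being highest in aged libraries 2 and 3, and aged library 1 lay within the young range.

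Interferon response genes leaned lower, with 16 of 24 tested genes lower and a median of -0.30. Without overlap were 4 (16.7%, where 3.73% of all genes were lower without overlap), Irf1, Ifi44, Gbp6 and Igtp, all lower, of which Irf1 is named after its values were seen. Ifi44 stood at 3.68, 3.97, 5.37 and 4.87 CPM in the young and 1.49, 2.44 and 2.20 CPM in the aged libraries (-1.10 ± 0.39, adjusted p = 0.536). Igtp, a GTPase of defence against intracellular pathogens, stood at 14.1, 8.33, 7.55 and 18.3 CPM in the young and 0.640, 4.10 and 7.04 CPM in the aged libraries (-1.56 ± 0.62, 0.56). The median was -0.88 with the enterocyte covariate and -0.74 without the enterocyte-rich libraries. Without young library 4 it was 0.02, and without aged library 3 -0.47.

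Signals to the stem cell niche did not pass in either direction. Wnt3, the main Wnt ligand of Paneth cells (Entrez 22415, chromosome 11, 103774175 to 103818021), stood at 17.2, 15.1, 10.4 and 5.10 CPM in the young and 18.8, 3.85 and 2.82 CPM in the aged libraries (-0.54 ± 0.67, adjusted p = 0.825). Aged library 1 held the highest level of all 7 and the other aged libraries the lowest, and the change was 0.19 with the enterocyte covariate. Notum (Entrez 77583, chromosome 11, 120653788 to 120661193) stood at 0.123, 2.38, 2.18 and 1.39 CPM in the young and 5.97, 2.44 and 3.34 CPM in the aged libraries (1.44 ± 0.72, adjusted p = 0.62). Its groups did not overlap, by a margin of 2.44 against 2.38 CPM, on 26 young and 85 aged reads in all, and with the covariate the change was 2.19 (adjusted p = 0.654).

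The Notch ligands Dll1 (-0.07, adjusted p = 0.942) and Dll4 (-0.35, 0.826) and the growth factor gene Egf (-0.57, 0.73) overlapped between groups. Of 3 further growth factor genes of the epidermal growth factor family, Tgfa stood at 8.82, 11.9, 7.72 and 6.03 CPM in the young and 9.39, 17.4 and 16.9 CPM in the aged libraries (0.78 ± 0.35, 0.59), without separate groups. Hbegf (1.45, 0.558) and Ereg (1.65, 0.59) overlapped as well. With the enterocyte covariate the log2 changes of Tgfa, Hbegf and Ereg were 0.86, 0.32 and 0.25, and without the 3 enterocyte-rich libraries -0.01, 0.30 and -1.91. Bst1, the ectoenzyme that feeds cyclic ADP ribose to stem cells, stood at 16.3, 0, 3.02 and 38.5 CPM in the young and 16.2, 63.3 and 57.1 CPM in the aged libraries (1.64 ± 0.99, 0.651). Hbegf and Bst1 were high in young library 4 as well as in aged libraries 2 and 3, the enterocyte-rich ones. Of 19 listed niche signals 13 were tested, 8 of them higher, with a median of 0.56. Only Notum of the 13 had groups without overlap (7.69%, where 4.15% of all genes were higher without overlap). The summed level of the list was 215, 214, 198 and 460.5 CPM in the young and 259, 666 and 589 CPM in the aged libraries, highest in the enterocyte-rich libraries. The median was 0.25 with the enterocyte covariate and 0.30 without those 3 libraries. It was 0.10 without young library 3, 0.24 without young library 4 and 0.37 without aged library 3. Wnt9b and Wnt11 were under the count filter, Wnt9b at 0.613, 1.59, 2.52 and 1.85 CPM in the young and 0.427, 0.769 and 0.616 CPM in the aged libraries.

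Genes that receive or answer Wnt signals gave no passing change. Of 32 tested receptors and transducers 18 were higher and 14 lower, with a median of 0.09. The groups did not overlap for 2 of the 32, both lower (6.25%, where 3.73% of all genes were lower without overlap). Fzd3, a Frizzled receptor, stood at 188, 404, 164 and 205 CPM in the young and 116, 85.4 and 92.8 CPM in the aged libraries (-1.29 ± 0.38, adjusted p = 0.528) and did not overlap, and neither did Porcn, which adds the lipid that Wnt proteins need (-1.08, 0.59). Among 17 tested antagonists 10 were lower and 7 higher, with a median of -0.09. The groups did not overlap for 2 of the 17, both higher (11.8%, where 4.15% of all genes were higher without overlap). Notum and Dkk1 were higher without overlap, Dkk1 at 5.15, 1.98, 4.53 and 3.25 CPM in the young and 5.55, 7.95 and 6.77 CPM in the aged libraries (0.81 ± 0.39, 0.599). Of 22 Wnt target genes 17 were lower, with a median of -0.36. Prox1 was lower without overlap (-1.08, 0.534), and Notum, also on this list, higher. Each is 1 of 22 (4.55%), where 3.73% of all genes were lower and 4.15% higher without overlap. Both shares were near those of all genes. The median of the targets turned to 0.19 with the enterocyte covariate and to 0.12 without the enterocyte-rich libraries. With single libraries left out it was -0.58 without young library 4, -0.88 without aged library 1, -0.09 without aged library 2 and -0.23 without aged library 3. The stem cell genes Lgr5 (-0.41, 0.791) and Olfm4 (-0.61, 0.743) did not pass.

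Clock genes stood higher in aged Paneth cells, though none passed. In the circadian clock, Clock and Arntl switch on the Per and Cry genes, whose products shut that activation off, and output factors such as Dbp and Tef carry the rhythm to other genes. Dbp (Entrez 13170, chromosome 7, 45705100 to 45710203) stood at 4.17, 3.97, 3.52 and 6.49 CPM in the young and 15.1, 19.2 and 19.3 CPM in the aged libraries (1.98 ± 0.32, adjusted p = 0.163). Tef, its close relative, stood at 18.6, 20.6, 12.8 and 21.8 CPM in the young and 33.5, 51.2 and 43.5 CPM in the aged libraries (1.22 ± 0.28, 0.396). The lowest aged library lay above the highest young one for both, by more than 2-fold for Dbp.

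The repressor gene Cry1 stood at 8.09, 11.1, 6.38 and 7.88 CPM in the young and 17.1, 27.7 and 17.1 CPM in the aged libraries (1.32 ± 0.32, adjusted p = 0.415), and Per1 at 17.9, 23, 24.2 and 26 CPM in the young and 46.1, 40.9 and 53.8 CPM in the aged libraries (1.05 ± 0.25, 0.415). Per2 and Per3, named after their values were seen, stood at 32.7, 37.7, 36.4 and 28.8 CPM in the young and 77.9, 85.7 and 51.0 CPM in the aged libraries (1.08) and at 12.7, 10.3, 14.9 and 9.97 CPM in the young and 18.8, 20.3 and 23.1 CPM in the aged libraries (0.78). None of these genes passed, and groups did not overlap for any of the 6 named.

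Over the list, 14 of 18 tested clock genes were higher, with a median of 0.76. The groups did not overlap for 6 of 18, all higher (33.3%, where 4.15% of all genes were higher without overlap). Arntl (-0.60) and Nfil3 (-0.62), named after their values were seen, were lower. The median was 0.49 with the enterocyte covariate and 0.50 without the enterocyte-rich libraries, and between 0.60 and 0.88 with single libraries left out. The hour at which the mice were killed is not given in the sources used here.

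**Figure D4:**
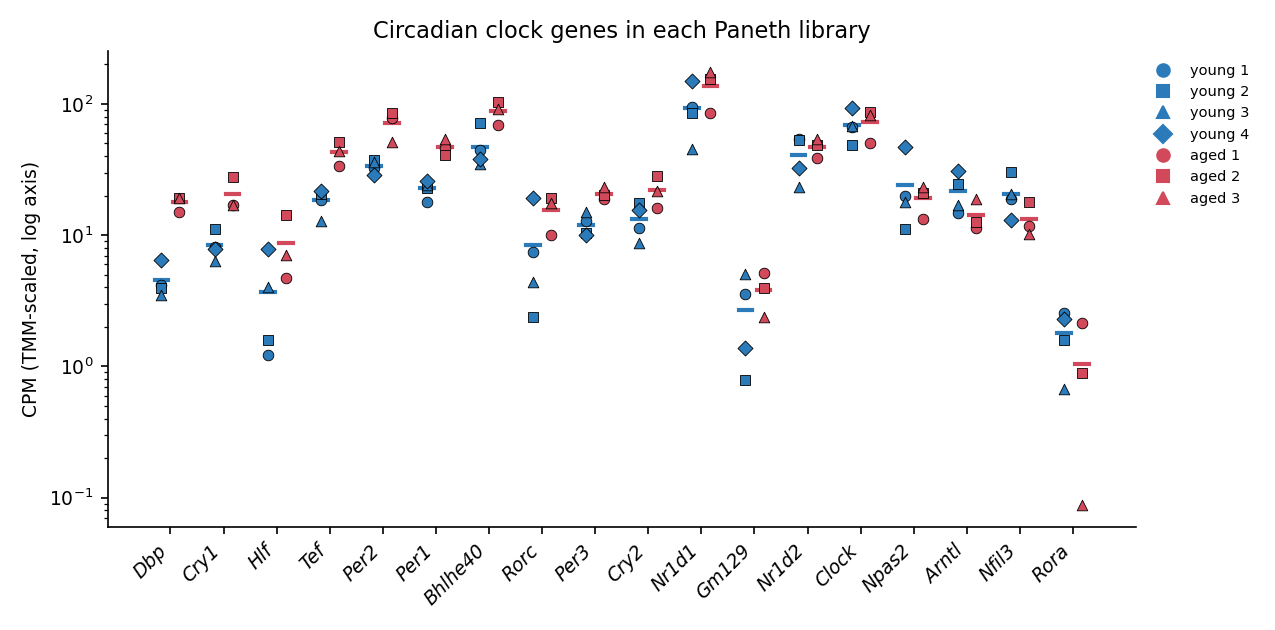
CPM (log axis) of the 18 tested circadian clock genes in 4 young and 3 aged Paneth libraries, ordered by log2 change, with bars at group means. All aged libraries lie above all young ones for Dbp, Cry1, Tef, Per2, Per1 and Per3, and Arntl and Nfil3 have lower means in aged libraries.

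Clock and Arntl bind the E-box CACGTG, which reads the same on both strands and was searched alone. Windows of 250 bases before the start site were found for 16 of 19 clock genes, and 5 held the E-box (Per1, Cry1, Tef, Bhlhe41 and Ciart, listed in the files as Gm129), against 6.02% of 32851 windows. A gene counted if any of its windows held the E-box, while 6.02% is a share of single windows. Per1, Tef and Arntl had 2 windows each and Clock had 3. The 3 that are also among the named genes are shown, at chr11:69098699-69098948, plus strand, for Per1, where the table's start site lies inside the annotated gene, at chr10:85185055-85185304, minus strand, for Cry1 and at chr15:81802423-81802672, plus strand, for Tef. Capitals mark the E-box.
Per1: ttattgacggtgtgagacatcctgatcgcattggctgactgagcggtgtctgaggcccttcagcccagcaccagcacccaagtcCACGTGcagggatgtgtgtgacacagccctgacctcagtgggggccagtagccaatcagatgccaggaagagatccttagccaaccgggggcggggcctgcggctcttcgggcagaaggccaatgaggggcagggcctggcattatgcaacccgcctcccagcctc
Cry1: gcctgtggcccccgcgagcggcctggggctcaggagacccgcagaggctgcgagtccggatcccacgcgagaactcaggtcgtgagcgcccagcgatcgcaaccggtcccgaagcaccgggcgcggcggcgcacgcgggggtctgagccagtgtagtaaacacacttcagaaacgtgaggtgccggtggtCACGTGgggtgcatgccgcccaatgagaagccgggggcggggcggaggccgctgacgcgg
Tef: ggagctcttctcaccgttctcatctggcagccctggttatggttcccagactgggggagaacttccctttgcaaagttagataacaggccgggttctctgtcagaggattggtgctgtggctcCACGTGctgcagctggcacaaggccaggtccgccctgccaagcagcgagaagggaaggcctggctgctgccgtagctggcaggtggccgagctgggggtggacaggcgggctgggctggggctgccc
The 4 tested genes with the E-box were all higher, with a median log2 change of 1.13, and of 11 tested genes without it 7 were higher, with a median of 0.21. Dbp was among those without it in the window.

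Lipid genes split by pathway. Cholesterol synthesis turns acetyl units into sterols and is run by the SREBP factors. Tm7sf2, a sterol reductase of its late steps (Entrez 73166, chromosome 19, 6062821 to 6067850), stood at 91.3, 308, 124 and 57.7 CPM in the young and 5.55, 4.62 and 3.08 CPM in the aged libraries (-5.05 ± 0.65, adjusted p = 0.0539). All aged libraries lay at least an order of magnitude below the lowest young one, and with the enterocyte covariate it passed (-3.79, adjusted p = 0.00103). Lss, which closes the sterol rings, stood at 10.5, 10.3, 12.3 and 5.56 CPM in the young and 2.56, 4.10 and 4.57 CPM in the aged libraries (-1.35 ± 0.39, adjusted p = 0.528), again without overlap.

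Of 24 tested cholesterol genes 15 were lower, with a median of -0.49. The groups did not overlap for 4, all lower (16.7%, where 3.73% of all genes were lower without overlap), Tm7sf2 and Lss among them. The change in Tm7sf2 was far larger than in the rest of its pathway, where the next lowest was -1.40, for Fdps. With the covariate the median was -0.33, and without the 3 enterocyte-rich libraries it was -0.63.

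Fatty acid oxidation genes were higher throughout. All 24 were higher, by 0.32 to 2.60, with a median of 0.73, and none passed. Groups without overlap were found for 5 (20.8%, where 4.15% of all genes were higher without overlap): Acot1, Ppara, and, named after their values were seen, Acads, Etfb and Acot2. Acot1, a thioesterase that is a target of Ppara, stood at 0.980, 2.38, 1.17 and 0.464 CPM in the young and 10.7, 7.57 and 3.43 CPM in the aged libraries (2.60 ± 0.57, adjusted p = 0.344), with aged library 1 highest, and reads may be split with its near copy Acot2. Ppara itself, the nuclear receptor for fatty acids, stood at 13.2, 13.9, 14.6 and 29.7 CPM in the young and 37.5, 37.7 and 31.3 CPM in the aged libraries (0.99 ± 0.33, 0.534).

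Pdk4, which diverts pyruvate from oxidation, overlapped (1.43, adjusted p = 0.534). The summed level of the list followed the enterocyte markers, with 779, 627, 747 and 1469 CPM in the young and 1031, 2190.0 and 1565 CPM in the aged libraries. With the enterocyte covariate the median was 0.24 and without the enterocyte-rich libraries 0.43, while the log2 change was 3.49 for Acot1 (adjusted p = 0.0825).

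Retinoid metabolism, which stores and oxidises vitamin A, had 12 of 16 tested genes higher, with a median of 0.64. The groups did not overlap for 2 of the 16, both higher (12.5%, where 4.15% of all genes were higher without overlap). Retsat, a retinol saturase (Entrez 67442, chromosome 6, 72598602 to 72607488), stood at 12.5, 16.7, 19.6 and 27.1 CPM in the young and 44.8, 159 and 95.5 CPM in the aged libraries (2.40 ± 0.43, adjusted p = 0.232), without overlap. Aldh1a1, which makes retinoic acid, stood at 36.5, 15.1, 53.5 and 92.3 CPM in the young and 65.1, 738 and 349 CPM in the aged libraries (2.96 ± 0.77, 0.483), and here aged library 1 lay below young library 4. Dhrs3, which returns retinal to retinol, stood at 12.1, 8.33, 13.1 and 16 CPM in the young and 20.1, 23.6 and 22 CPM in the aged libraries (0.81 ± 0.29, 0.534), without overlap. With the covariate the median was 0.37 and without the enterocyte-rich libraries 0.27, and without aged library 2 alone it was 0.34.

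Other genes of smallest p on the higher side were Pcp4l1, Akr1c19, F3, Gas2l3, Ces2a, Rab30, Ugt2b5 and Arl14, none of which passed. Pcp4l1 stood at 1.47, 0.793, 0.671 and 0.927 CPM in the young and 4.91, 23.1 and 16.1 CPM in the aged libraries (3.85 ± 0.57, adjusted p = 0.126). Akr1c19, an aldo-keto reductase, stood at 4.78, 1.19, 4.2 and 2.32 CPM in the young and 12.2, 78.0 and 44.9 CPM in the aged libraries (3.76 ± 0.62, 0.176). F3, tissue factor, which starts blood clotting, stood at 1.72, 4.76, 3.36 and 3.94 CPM in the young and 10.2, 32.8 and 23.1 CPM in the aged libraries (2.74 ± 0.47, 0.188). For these 3 genes aged libraries 2 and 3 were the highest and aged library 1 lay nearer to the young libraries.

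Rab30, a Golgi GTPase gene, stood at 2.82, 1.59, 2.52 and 13 CPM in the young and 18.3, 144 and 83.0 CPM in the aged libraries (4.03 ± 0.81, adjusted p = 0.299). It passed with the enterocyte covariate (2.43, adjusted p = 0.0384) as the only gene on the higher side. Gas2l3, a cytoskeletal linker, stood at 10.4, 8.72, 8.73 and 10.2 CPM in the young and 19.6, 30.1 and 24.2 CPM in the aged libraries (1.37 ± 0.27, adjusted p = 0.299), and the young libraries lay close together. On the lower side the histone gene Hist1h2bn stood at 12.6, 12.3, 14.6 and 8.35 CPM in the young and 4.05, 1.54 and 2.29 CPM in the aged libraries (-2.22 ± 0.42, 0.259), and reads may be shared with its near-identical histone copies.

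**Figure D5:**
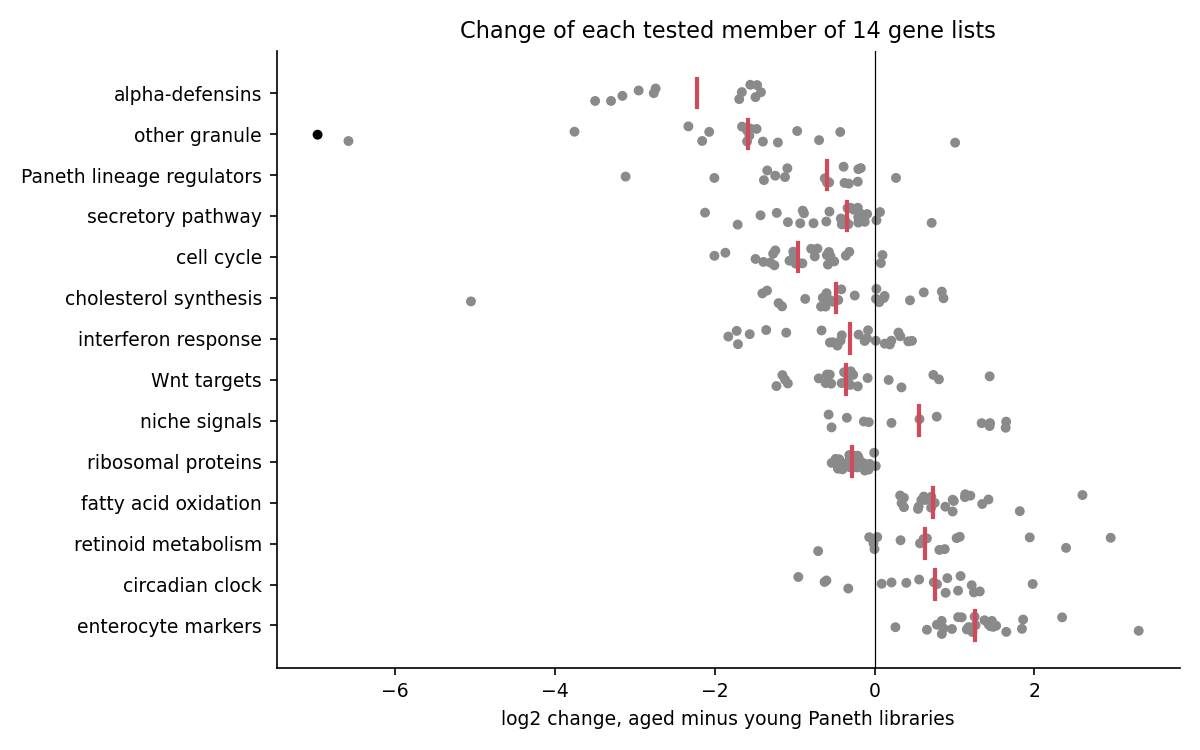
Log2 change, aged minus young, of each tested member of 14 gene lists, with a red bar at each list's median. The black point is Mptx2, the only listed gene that passed the test; all fatty acid oxidation genes and enterocyte markers lie above 0 and all alpha-defensins below 0.

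Genes of dividing cells were lower. Of 27 cell cycle genes 25 were lower, with a median of -0.95, and none passed. The groups did not overlap for 2 of them, both lower (7.41%, where 3.73% of all genes were lower without overlap). Bub1b, a kinase of the mitotic checkpoint, stood at 18.5, 30.1, 23.7 and 22.5 CPM in the young and 16.6, 10.3 and 8.53 CPM in the aged libraries (-1.01 ± 0.33, adjusted p = 0.534), and Cdk4, which drives entry into S phase, at 15.3, 33.7, 17.8 and 14.8 CPM in the young and 12.4, 7.31 and 9.41 CPM in the aged libraries (-1.06 ± 0.38, 0.534). Of 22 tested stem cell markers 20 were lower, with a median of -0.46 and a summed level of 2383, 2091, 2592 and 825 CPM in the young and 2060.1, 678 and 1013 CPM in the aged libraries, and their part in the cell cycle values was not tested. The cell cycle median was -0.31 with the enterocyte covariate and -0.63 without the 3 enterocyte-rich libraries. The stem cell marker median turned to 0.16 and 0.13 in these fits, and it was -1.02 without aged library 1 and -0.14 without aged library 2. Ribosomal protein genes were lower in 31 of 32 cases by small amounts (median -0.28), none with p under 0.05, and the median turned to 0.22 with the covariate and to 0.04 without the 3 enterocyte-rich libraries.

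The age change in Paneth cells was last set against that in stem cells, in a fit of all 13 libraries. The cell types were prepared with different library kits, whose part cannot be told apart from that of the cell type. No gene of 16960 passed for the difference (0%), while 1493 had an unadjusted p under 0.05 (8.8%). By DESeq2 100 genes passed and by limma-voom 2058, and without young stem library 1 edgeR called 17. The smallest adjusted p, 0.0512, belonged to Mptx2 and Tm7sf2. For Mptx2 the difference was -6.06 ± 0.84, with 38.3 ± 5.11 CPM (SD) in the young stem cell libraries and 20.0 ± 12.0 CPM in the aged ones. For Tm7sf2 it was -4.71 ± 0.69, with 11.8 ± 4.81 CPM (SD) in the young stem cell libraries and 9.32 ± 0.870 CPM in the aged ones.

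Hhex (-4.18 ± 0.67, adjusted p = 0.0645) and Atoh8 (-6.21 ± 0.98, 0.0645) followed. Hhex stood at 1.48 ± 0.587 CPM (SD) in the young stem cell libraries and 1.36 ± 0.309 CPM in the aged ones. Atoh8 stood at 5.33 ± 2.48 CPM (SD) in the young stem cell libraries and 5.01 ± 1.80 CPM in the aged ones, so the group means of both genes were close in stem cells. Tnf differed by -6.97 ± 1.18 (0.0703), with 6.12 ± 6.15 CPM (SD) in the young stem cell libraries and 18.7 ± 2.80 CPM in the aged ones, so it was higher in aged stem cells by value. For Dbp the difference was 3.47 ± 0.57 (0.0703), with 6.71 ± 3.49 CPM (SD) in the young stem cell libraries and 2.40 ± 0.924 CPM in the aged ones, and for Tef 2.68 ± 0.56 (0.14), with 41.1 ± 25.0 CPM (SD) in the young stem cell libraries and 15.0 ± 0.973 CPM in the aged ones. Both output genes of the clock thus stood lower in aged than in young stem cells and higher in aged than in young Paneth cells. The young stem cell libraries were uneven in sex-linked and stromal RNA. The Y-linked gene Uty stood at 12.9 ± 19.2 CPM (SD) in them and 1.48 ± 0.724 CPM in the aged ones. Xist stood at 1231 ± 1068 and 2168 ± 618 CPM, and the collagen gene Col1a1 at 18.9 ± 15.8 and 0.358 ± 0.0767 CPM. Their part in the differences was not tested. Per1 stood at 30.6 ± 9.73 CPM (SD) in the young stem cell libraries and 32.9 ± 4.98 CPM in the aged ones (difference 0.94 ± 0.35, adjusted p = 0.501). Since no difference passed, no age change is shown to be particular to Paneth cells.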

How the data were processed

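RNA-seq of 7 Paneth cell libraries (4 young, 3 aged) was analysed, with 6 stem cell libraries for 1 contrast. The deposited column is headed FPKM, but the deposited values behave like expected counts (estimated reads per gene, some split between genes: 71.0% to 73.1% of values under 20 in Paneth libraries lie within 0.001 of a whole number). The submitters' processing notes name mm10 and DESeq without role or version; the sources used here do not give the aligner, the counting tool or the use of strand. The 36186 rows per library were summed by Entrez ID to 35791 genes and rounded, and 27 symbols turned into dates were restored. Positions and symbols are from a GRCm38 RefSeq table that held 32961 of the genes.

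Tests were edgeR 4.0.16 quasi-likelihood fits in R 4.3.3 (TMM, filterByExpr, robust), Paneth libraries alone. Genes passed at a Benjamini-Hochberg adjusted p under 0.05. The biological coefficient of variation came to 0.406. SE is the absolute log2 change over the square root of F. The difference from stem cells was a contrast over 13 libraries. The code was tested on simulated data. The rule for naming took up to 10 genes each way by change or smallest p with a mean of at least 5 CPM, 4 per list by smallest p, 5 each way for the difference, and a fixed set of Paneth and niche genes. Members and lists were chosen with earlier results of these data known. Of the listed names 3 matched no gene. Alternatives were library totals or RLE size factors, a stricter filter (5 CPM in 3 libraries) or none, DESeq2 1.42.0, voom with sample weights in limma 3.58.1, the replicate number as a block, the 3 loci or the defensins and Lyz1 left out before scaling, an enterocyte covariate, all 13 libraries in 1 fit, each library left out, and, chosen after seeing the data, the 3 enterocyte-rich libraries left out together. Values of some genes that the rule for naming took are not reported here.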

Additional observations from a re-analysis of the deposited data

Results flagged for a closer look

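In the 4 young libraries, 15 of 138 named genes had a library far from the other 3, by its gap against the range of the group. The limit used flags about 1 in 20 groups of normally distributed values. Here it was set on CPM without a log scale, for genes named in part by their p. The share that chance would flag is therefore not known. Of the 15, 8 were set by young library 4, 4 by young library 2, 3 by young library 3 and none by young library 1.

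Young library 4 stood at 107 CPM for Hbegf, 17.4 for Slc30a1, 40.6 for Isx, 29.7 for Ppara, 18.5 for Ndufb5 and 153 for Duox2, above the other young libraries, at 42.7 for Rpl32, below them, and at 38086 CPM for Gm20594, one of the 3 large loci. The same library held the highest enterocyte sum of the young libraries, 28935 CPM. Young library 2 stood at 227 CPM for Atoh8, 404 for Fzd3 and 33.7 for Cdk4, above the others, and at 7.93 for Cox7c, below them. It had the fewest reads off the 3 loci, 1554886. Young library 3 stood at 19.3 CPM for Mt1, 39.1 for Cel and 25.5 for Cela1, the last 2 being enzymes of the exocrine pancreas. Whether these features of the libraries set the values was not tested. For Atoh8, Fzd3, Cdk4 and Duox2 the aged libraries lay below each of the other young libraries too.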

How the results depend on the processing

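The count of genes passing for the age change was 2 with RLE size factors, with the stricter filter and with the defensins left out. It was 12 with library totals, 11 without a filter, 114 with DESeq2, 1686 with limma-voom, 5 with the 3 loci left out, 9 with the enterocyte covariate and 47 with all 13 libraries in 1 fit. Leaving out single libraries gave 0 to 20 genes: 0 without young 1, young 3, aged 2 or aged 3, 2 other genes without young 2, 6 without young 4 and 20 without aged 1. Without the 3 enterocyte-rich libraries 3 genes passed, 1 of them (Mptx2) shared. For the difference from stem cells 15 genes passed with library totals, 6 without a filter, 100 with DESeq2, 2058 with limma-voom and 0 to 90 with single libraries left out (90 without aged Paneth 1, 27 without young Paneth 4, 17 without young stem 1, 6 without young stem 3, 4 without young Paneth 2, 2 without aged stem 3). The cause of these shifts was not tested.

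Replicate numbers did not pair the libraries: correlations of same-numbered deviations were -0.292, -0.290 and 0.035. With the replicate block 0 genes passed for the age change and 3 for the difference. Mptx2 and Rps4y2 kept their direction in every alternative run. No passing change turned sign. Of the 34 list medians, 15 changed sign with library totals, 12 with the covariate and 13 without the 3 enterocyte-rich libraries.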

Other observations

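No gene described here passed the edgeR test. Mdm2, the ligase that p53 switches on to limit itself, stood at 32.2, 17.4, 34.9 and 41.5 CPM in the young and 52.9, 99.4 and 109 CPM in the aged libraries (1.46 ± 0.36, adjusted p = 0.434), without overlap. Cdkn1a, the p53 target that stops the cell cycle, had a log2 change of 0.21 (adjusted p = 0.85). Of 22 oxidative stress genes 17 were higher (median log2 change 0.36). Among them Gsta1, a glutathione transferase, stood at 11.6, 9.12, 17.5 and 37.3 CPM in the young and 25.2, 237 and 112 CPM in the aged libraries (2.72 ± 0.69, 0.471) and Nqo1, a quinone reductase, at 3.55, 0.397, 2.69 and 3.48 CPM in the young and 4.27, 11.8 and 7.57 CPM in the aged libraries (1.56 ± 0.55, 0.534), without overlap for Nqo1. Gpx2, the glutathione peroxidase of crypts, went the other way, with 27.1, 24.6, 41.0 and 60.7 CPM in the young and 24.7, 8.08 and 11.8 CPM in the aged libraries (-1.38 ± 0.46, 0.534). Beside Nqo1 only Gpx1, lower and named after its values were seen, had groups without overlap. Each is 1 of 22 (4.55%), where 4.15% of all genes were higher and 3.73% lower without overlap. Both shares were near those of all genes. With the enterocyte covariate the median of the list was 0.10, and without the 3 enterocyte-rich libraries -0.12.

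Zinc handling genes, which matter for granules that store zinc, were higher in 10 of 12 cases (median 0.44), and the zinc importer gene Slc39a14 stood at 37.7, 33.3, 26.9 and 43.8 CPM in the young and 45.9, 107 and 72.9 CPM in the aged libraries (1.09 ± 0.33, adjusted p = 0.528), without overlap. Slc39a14 was the only one of the 12 without overlap (8.33%, where 4.15% of all genes were higher without overlap). The median of the zinc list turned to -0.21 with the covariate and to -0.06 without the 3 enterocyte-rich libraries. Autophagy genes (13 higher and 15 lower, median -0.04), genes of the mTORC1 pathway (11 and 15, -0.10) and Notch pathway genes (4 and 13, -0.16) differed little. Immediate early genes had a median of 0.20 (13 higher, 9 lower). Oxidative phosphorylation genes of the nucleus were higher in 24 of 34 cases (median 0.21), and glycolysis genes in 15 of 19 (median 0.51). Pfkl, the liver form of phosphofructokinase, stood at 20.8, 15.9, 31.1 and 17.2 CPM in the young and 43.5, 44.1 and 40.7 CPM in the aged libraries (1.003 ± 0.29, 0.528), with all aged libraries near the same level and no overlap. Pfkl was the only one of the 19 glycolysis genes without overlap (5.26%, where 4.15% of all genes were higher without overlap). With the covariate the medians turned to -0.38 for oxidative phosphorylation and -0.19 for glycolysis. Without the 3 enterocyte-rich libraries they were -0.19 and 0.24, so that of glycolysis kept its direction there. Genes of the exocrine pancreas list, of which 4 were tested, were all lower (median -2.59). The groups overlapped for Clps, Cel and Cela1 and did not for Pnliprp1 (25.0% of the 4, where 3.73% of all genes were lower without overlap). Of 12 tested goblet markers 10 were lower (median -0.63), and 2 were lower without overlap (16.7%). Of 18 tested enteroendocrine markers 14 were lower (median -0.33), and 1 was lower without overlap (5.56%). With the enterocyte covariate these 2 medians were -0.41 and 0.41, and without the 3 enterocyte-rich libraries -0.59 and -0.04. Cd3d, a chain of the T cell receptor complex, stood at 16.4, 11.9, 10.4 and 14.1 CPM in the young and 29.4, 22.7 and 22.3 CPM in the aged libraries (0.90 ± 0.27, 0.534), without overlap, while 7 of 14 tested leukocyte markers were higher and 7 lower. The groups did not overlap for 2 of the 14, both higher (14.3%, where 4.15% of all genes were higher without overlap).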
